A study of Homo sapiens with 8 samples.

Results

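AP-1 and immediate-early transcripts were examined in LP-1, a human multiple myeloma cell line, through 10 genes chosen by name: JUN, JUNB, JUND, FOS, FOSL2, ATF3, BATF, EGR1, IER2 and IER3. They are 10 of the 63129 rows of the deposited expression table. RNA-seq was performed 6 hr after treatment with 2.5 μM SGC-CBP30, which inhibits the bromodomains of the histone acetyltransferases CBP and EP300, with 0.25 μM CPI203, which inhibits the bromodomains of the BET family, or with the vehicle DMSO. There are 8 libraries in 4 groups of 2 biological replicates. The SGC-CBP30 and CPI203 experiments each include a separate DMSO pair, which was matched to its compound through the library identifiers in the sample titles. All groups are the same unmodified cell line at the same time point, so a single line, a single dose per compound and a single time are compared, and the doses of the compounds differ 10-fold. Values are RPKM, reads per kilobase of transcript scaled to each library's mapped reads, so levels of different genes can be set side by side.

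AP-1 is a dimer of basic leucine zipper (bZIP) proteins in which a JUN protein pairs with another JUN, a FOS or an ATF protein and binds short palindromic DNA sites. Several of its subunits are encoded by immediate-early genes, which are transcribed within minutes of a stimulus without new protein synthesis, often through serum response factor and MAP kinases, and whose transcripts are short-lived. BATF proteins are lymphoid AP-1 subunits, ATF3 is a stress-induced bZIP factor, EGR1 is a zinc finger factor, and IER2 and IER3 are short proteins named for their immediate-early response. CBP and EP300, whose bromodomains SGC-CBP30 binds, are coactivators of the bZIP factor CREB and also of AP-1 proteins.

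Of the 10 genes, 8 reached the mean of 1 RPKM needed for testing, and the 14732 genes that did so were fitted together with limma. EGR1, with a mean of 0.258 RPKM, and BATF, with a mean of 0.0188 RPKM, were not tested, and FOSL2, IER3 and FOS were tested at means of 1.00, 1.03 and 1.17 RPKM, just above the limit. Their means passed it through the groups in which each was highest, for IER3 through CPI203 alone and for FOS through the DMSO of the SGC-CBP30 experiment. The counts over the 8 genes are therefore descriptions and support nothing. A gene was called when its Benjamini-Hochberg adjusted p was under 0.05 and its change at least 1.5-fold. The difference between the compounds was called on the adjusted p alone, with no minimum fold. Fold changes are on the log2(RPKM + 0.1) scale, which understates the change of low genes such as FOS. Estimated from the steps of low values, the depth was 26000000 to 34400000 reads in 6 libraries and 50100000 and 46800000 in the SGC-CBP30 libraries. As for cell identity, 8 of 8 plasma cell markers were at 1 RPKM or more in every library.

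The promoters of JUN, JUND and ATF3 are shown because these are the most abundant of the genes that rose with CPI203, that of FOS because it moved in opposite directions with the compounds, and that of EGR1 because it holds the textbook element of the immediate-early response. Each sequence gives the 250 bases before the RefSeq transcription start, 5′ to 3′ on the strand of the gene, in build GRCh38.p14. Capitals mark TGACGTCA (the cyclic AMP response element), TGACATCA (its variant in the JUN promoter), the serum response element or TATAAA.
JUN, chr1:58784048-58784297, minus strand: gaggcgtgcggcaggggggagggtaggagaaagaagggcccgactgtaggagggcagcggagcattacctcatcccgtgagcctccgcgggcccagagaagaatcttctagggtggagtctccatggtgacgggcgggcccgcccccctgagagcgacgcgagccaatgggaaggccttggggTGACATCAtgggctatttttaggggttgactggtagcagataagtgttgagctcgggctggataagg
JUND, chr19:18281623-18281872, minus strand: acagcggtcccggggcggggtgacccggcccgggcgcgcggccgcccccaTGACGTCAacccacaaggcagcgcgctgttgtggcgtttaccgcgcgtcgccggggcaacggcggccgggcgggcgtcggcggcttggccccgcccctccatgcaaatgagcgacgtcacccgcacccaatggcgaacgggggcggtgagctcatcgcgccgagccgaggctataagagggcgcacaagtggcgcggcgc
ATF3, upstream start, chr1:212565157-212565406, plus strand: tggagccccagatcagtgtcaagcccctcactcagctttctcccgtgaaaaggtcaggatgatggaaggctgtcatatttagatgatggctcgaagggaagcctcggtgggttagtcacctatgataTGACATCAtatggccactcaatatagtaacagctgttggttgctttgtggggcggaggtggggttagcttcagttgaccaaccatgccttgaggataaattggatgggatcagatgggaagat
FOS, chr14:75278578-75278827, plus strand: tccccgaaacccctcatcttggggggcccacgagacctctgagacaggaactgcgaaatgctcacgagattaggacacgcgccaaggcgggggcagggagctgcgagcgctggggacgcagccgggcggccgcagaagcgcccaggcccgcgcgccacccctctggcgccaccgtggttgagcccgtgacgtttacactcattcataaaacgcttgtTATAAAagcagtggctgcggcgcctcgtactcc
EGR1, chr5:138465229-138465478, plus strand: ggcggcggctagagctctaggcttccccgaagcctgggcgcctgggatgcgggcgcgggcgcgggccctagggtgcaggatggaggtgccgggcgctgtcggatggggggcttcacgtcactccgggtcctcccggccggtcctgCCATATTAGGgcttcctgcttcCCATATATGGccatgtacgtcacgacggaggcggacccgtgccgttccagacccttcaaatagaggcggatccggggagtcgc

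The search covered both strands from 250 bases before to 50 bases after the start, for these motifs and for the AP-1 site TGANTCA, and 9 of the 10 genes had a promoter in the RefSeq table, IER3 being the exception. TGACATCA stood 67 bases before the JUN start and 123 bases before the upstream ATF3 start, and 2.61% of all 35116 promoters held it. TGACGTCA stood 200 bases before the JUND start, against 1.85% of all promoters. EGR1 held serum response elements 105 and 83 bases before its start, and 1.29% of promoters held such an element. FOS and JUNB held TATAAA, as did 11.5% of promoters, 33 and 31 bases before the start, and a second ATF3 start held it 230 bases upstream. The AP-1 letters TGANTCA occurred in FOSL2 alone, 4 bases after its start, against 7.71% of all promoters, and none of the motifs occurred in IER2 or BATF. These matches describe the letters in these windows and are not evidence of binding. Only exact matches were counted, so a near match such as tgacgttt in the FOS window was left unmarked. Sites farther from the start were not searched either. A gene without a match here, such as FOS for the serum response element, may therefore hold one elsewhere.

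In DMSO, the JUN genes were the most abundant and the EGR1 and BATF transcripts the least. JUND was highest at 20.7 ± 0.172 RPKM (SD, n = 2) in the SGC-CBP30 experiment and 19.0 ± 2.79 in the CPI203 experiment. JUN followed at 13.7 and 12.3, JUNB at 10.1 and 8.48, IER2 at 9.56 and 5.79, and ATF3 at 3.02 and 4.64 RPKM. No neighbours in this upper part of the order overlapped in their 2 libraries. FOSL2 and IER3 overlapped in both experiments, at 0.833 to 0.910 RPKM. FOS, the partner that gives AP-1 its classical JUN-FOS form, stood sixth at 2.19 RPKM in one experiment and eighth at 0.328 RPKM in the other. The remaining FOS relatives were low in every library, with FOSB between 0.0974 and 0.585 RPKM and FOSL1 between 0.0169 and 0.132 RPKM.

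**Figure D1:**
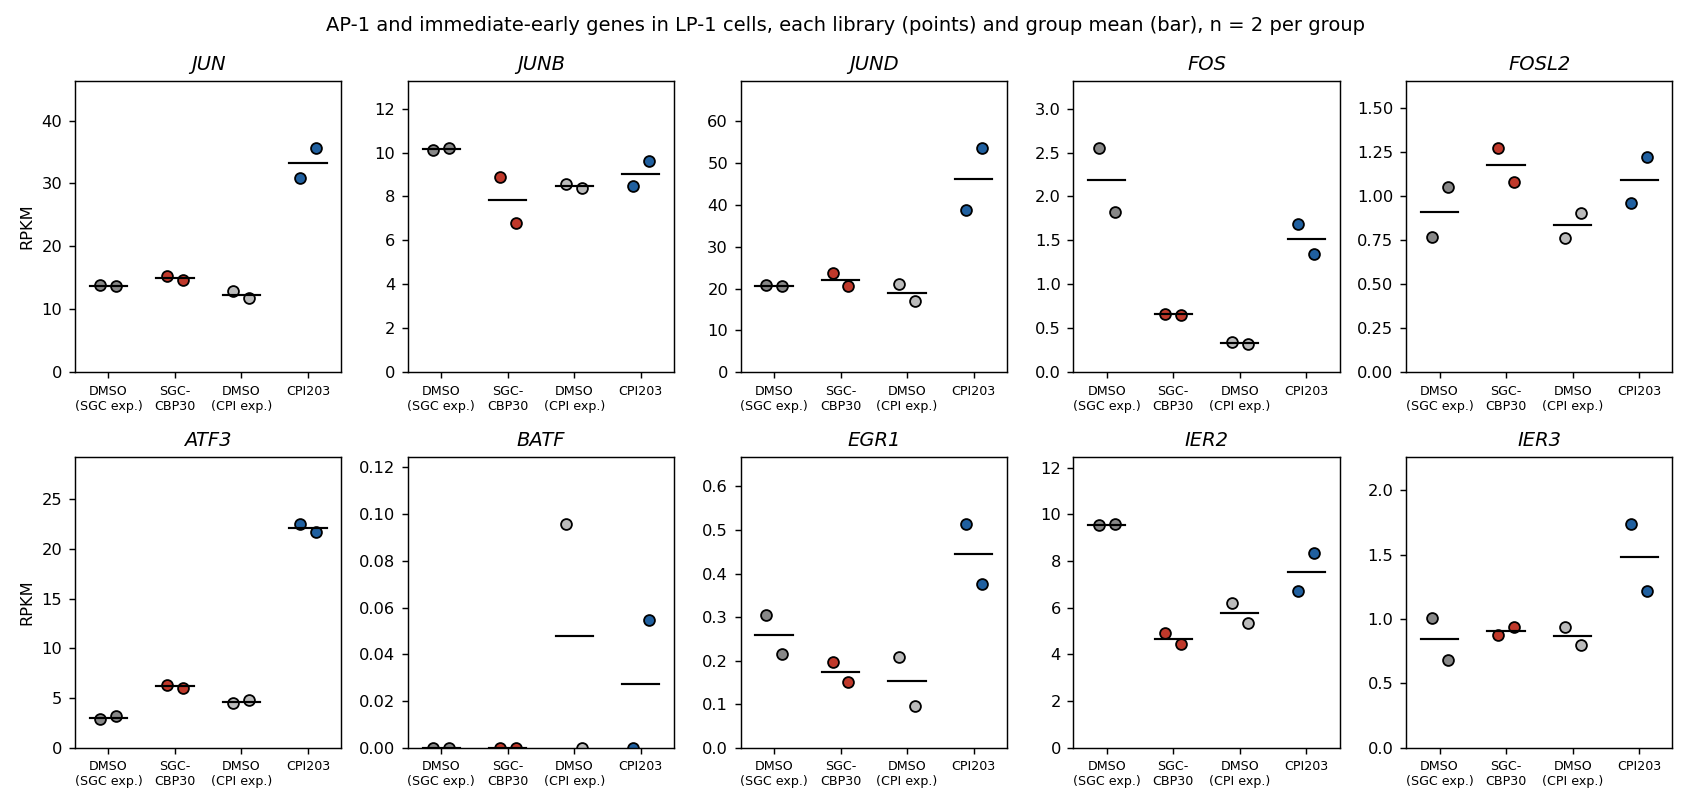
RPKM of the 10 genes in each of the 8 libraries (points) with the group mean (bar), each panel on its own linear axis from 0. JUN, JUND and ATF3 were raised with CPI203, while FOS and IER2 fell with SGC-CBP30 and differed between the DMSO pairs.

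CPI203 raised JUN, JUND, FOS and ATF3, and IER3 less securely, and all 8 fitted changes were positive. That is 5 of 8 called higher, where 13.4% of all genes tested were called higher, 14.4% lower and 27.8% in either direction, and 4 of the 5 remain when IER3 is set aside. The median log2 fold change of the 8 genes was 0.98, against -0.01 over all genes tested.

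JUN (chromosome 1, 59246464 to 59249785 in hg19, a gene of 1 exon) encodes c-Jun, the founding AP-1 subunit and the substrate of the JNK kinases. It measured 12.9 and 11.7 RPKM in DMSO and 30.9 and 35.6 with CPI203, so both treated libraries stood far above both controls. The log2 fold change was 1.43 (SE 0.077, adjusted p = 2.66e-07). JUND (chromosome 19, 18390562 to 18392432, also of 1 exon), a JUN protein commonly present in resting cells, measured 21.0 and 17.0 RPKM in DMSO and 38.7 and 53.6 with CPI203. Its log2 fold change was 1.27 (SE 0.143, adjusted p = 3.30e-05), and its treated libraries were the most unequal among the JUN genes.

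JUNB (chromosome 19, 12902309 to 12904124, of 1 exon), which can oppose c-Jun at some promoters, did not share this rise. Its values of 8.57 and 8.39 RPKM in DMSO and 8.46 and 9.61 with CPI203 overlapped. The log2 fold change of 0.09 (SE 0.118, adjusted p = 0.545) has a 95% interval from -0.18 to 0.35, which ends well below the changes of JUN and JUND.

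The JUN transcript pool therefore changed both in size and in makeup. Summed over JUN, JUNB and JUND it was 42.5 and 37.1 RPKM in DMSO and 78.1 and 98.8 RPKM with CPI203. JUNB made up 20.2% and 22.6% of the pool in DMSO and 10.8% and 9.72% with CPI203. JUN made up 30.4% and 31.5% in DMSO and 39.6% and 36.0% with CPI203, and JUND made up 49.4% and 45.9% in DMSO and 49.6% and 54.3% with CPI203, so the lower treated library stood just above the higher control.

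ATF3 (chromosome 1, 212738675 to 212794119, 4 exons in its principal transcript), a repressor or activator induced by many stresses, had the highest fitted change with CPI203, with a 95% interval from 2.04 to 2.42 that overlaps the FOS interval from 1.39 to 2.43. It measured 4.51 and 4.77 RPKM in DMSO and 22.5 and 21.7 with CPI203, a log2 fold change of 2.23 (SE 0.085, adjusted p = 3.60e-08). With this it moved from rank 5 to rank 3 in the order of levels, above JUNB and IER2.

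FOS (chromosome 14, 75745476 to 75748933, 4 exons), the classical serum-induced partner of JUN, measured 0.339 and 0.316 RPKM in DMSO and 1.69 and 1.34 with CPI203. The treated libraries lay well above the controls, at a log2 fold change of 1.91 (SE 0.233, adjusted p = 5.73e-05). About 21 and 18 reads stood behind the DMSO values and 95 and 86 behind the CPI203 values, so counting error is appreciable. With all 4 DMSO libraries as controls the change was 0.71 with an adjusted p of 0.455, and the call was lost.

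FOSL2 (chromosome 2, 28615314 to 28640179), which encodes Fra-2, measured 0.762 and 0.905 RPKM in DMSO and 0.957 and 1.22 with CPI203. The groups did not overlap, yet the log2 fold change of 0.34 (SE 0.235, adjusted p = 0.227) did not pass the test. Its 95% interval ran from -0.18 to 0.87.

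IER2 (chromosome 19, 13261228 to 13265722), a nuclear protein, measured 6.22 and 5.36 RPKM in DMSO and 6.73 and 8.33 with CPI203. Its log2 fold change of 0.37 (SE 0.116, adjusted p = 0.0181) passed the p threshold but not 1.5-fold. IER3 (chromosome 6, 30710975 to 30712331), a regulator of cell death and ERK signalling, measured 0.942 and 0.797 RPKM in DMSO and 1.74 and 1.22 with CPI203. Its group means were 0.849, 0.908 and 0.870 RPKM outside CPI203 and 1.48 RPKM with it, so it entered the test only through the group in which it was high. It was called at a log2 fold change of 0.69 (SE 0.254, adjusted p = 0.0371), but the call was lost without CPI203 replicate 1 (0.45, adjusted p = 0.234), without either DMSO library of the experiment (adjusted p = 0.0598 and 0.15) or without either SGC-CBP30 library (adjusted p = 0.0528 and 0.0533). It was lost as well with a pseudocount of 1 RPKM, where the change was 0.40 and under 1.5-fold, and with no filter on low values, where the adjusted p was 0.111.

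EGR1 (chromosome 5, 137801178 to 137805004, 2 exons), a factor that is among the earliest to respond to growth signals, stayed under 1 RPKM throughout. It measured 0.209 and 0.0959 RPKM in DMSO and 0.514 and 0.375 with CPI203, from about 19 and 8 reads against 42 and 35. In a fit with no filter on low values its log2 fold change was 1.13 (adjusted p = 0.0437). BATF (chromosome 14, 75988767 to 76013358, 3 exons) was listed at 0 in 6 of the 8 libraries and reached at most 0.0958 RPKM, about 3 reads, so no difference was detectable at this depth.

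SGC-CBP30 raised ATF3 and lowered FOS and IER2, and the JUN genes were not called. Thus 1 gene of the 8 tested was called higher and 2 lower, where 3.47% of all genes tested were called higher, 3.79% lower and 7.26% in either direction. The median log2 fold change of the 8 genes was 0.10, against 0.07 over all genes tested.

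ATF3 measured 2.87 and 3.18 RPKM in DMSO and 6.35 and 5.98 with SGC-CBP30. The log2 fold change was 1.01 (SE 0.085, adjusted p = 3.02e-05), which made ATF3 the only member called higher with both compounds. FOS measured 2.55 and 1.82 RPKM in DMSO and 0.664 and 0.648 with SGC-CBP30, from about 189 and 134 reads against 72 and 65. It fell by 1.58 on the log2 scale (SE 0.233, adjusted p = 7.96e-04). Its mean was 2.19 RPKM in this DMSO pair, 0.656 with SGC-CBP30, 0.328 in the other DMSO pair and 1.51 with CPI203. FOS thus entered the test through the control pair in which it was highest, and the fall is read against that pair. IER2 measured 9.53 and 9.59 RPKM in DMSO and 4.90 and 4.44 with SGC-CBP30, and fell by 1.02 on the log2 scale (SE 0.116, adjusted p = 1.81e-04). In each of these genes both treated libraries stood apart from both of their own controls. With all 4 DMSO libraries as controls none of the 3 was called, at -0.38 for FOS (adjusted p = 0.765), -0.66 for IER2 (adjusted p = 0.108) and 0.70 for ATF3 (adjusted p = 0.0534).

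JUN measured 13.8 and 13.7 RPKM in DMSO and 15.2 and 14.6 with SGC-CBP30, a log2 fold change of 0.12 (SE 0.077, adjusted p = 0.260). The 95% interval from -0.06 to 0.29 does not reach 1.5-fold. JUND measured 20.8 and 20.6 RPKM against 23.6 and 20.5, which overlapped, at a log2 fold change of 0.09 with an interval from -0.23 to 0.41. JUNB measured 10.1 and 10.2 RPKM against 8.90 and 6.77, at -0.38 (SE 0.118, adjusted p = 0.0288), which passed the p threshold but not 1.5-fold. The summed JUN transcripts of 44.7 and 44.5 RPKM in DMSO lay between the 47.8 and 41.9 RPKM of the treated libraries, while JUNB made up 22.5% and 22.9% of the sum in DMSO and 18.6% and 16.2% with SGC-CBP30.

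FOSL2 measured 0.765 and 1.05 RPKM in DMSO and 1.27 and 1.08 with SGC-CBP30 (log2 fold change 0.35, adjusted p = 0.268). FOS made up 72.7% and 57.0% of the summed FOS, FOSB, FOSL1 and FOSL2 transcripts in DMSO and 27.8% and 31.3% with SGC-CBP30. IER3 measured 1.01 and 0.683 RPKM against 0.876 and 0.941, which overlapped, and its log2 fold change of 0.11 (adjusted p = 0.762) turned to -0.07 under quantile normalization. EGR1 measured 0.305 and 0.215 RPKM against 0.197 and 0.15, and in the fit with no filter its log2 fold change was -0.39 (adjusted p = 0.499).

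**Figure D2:**
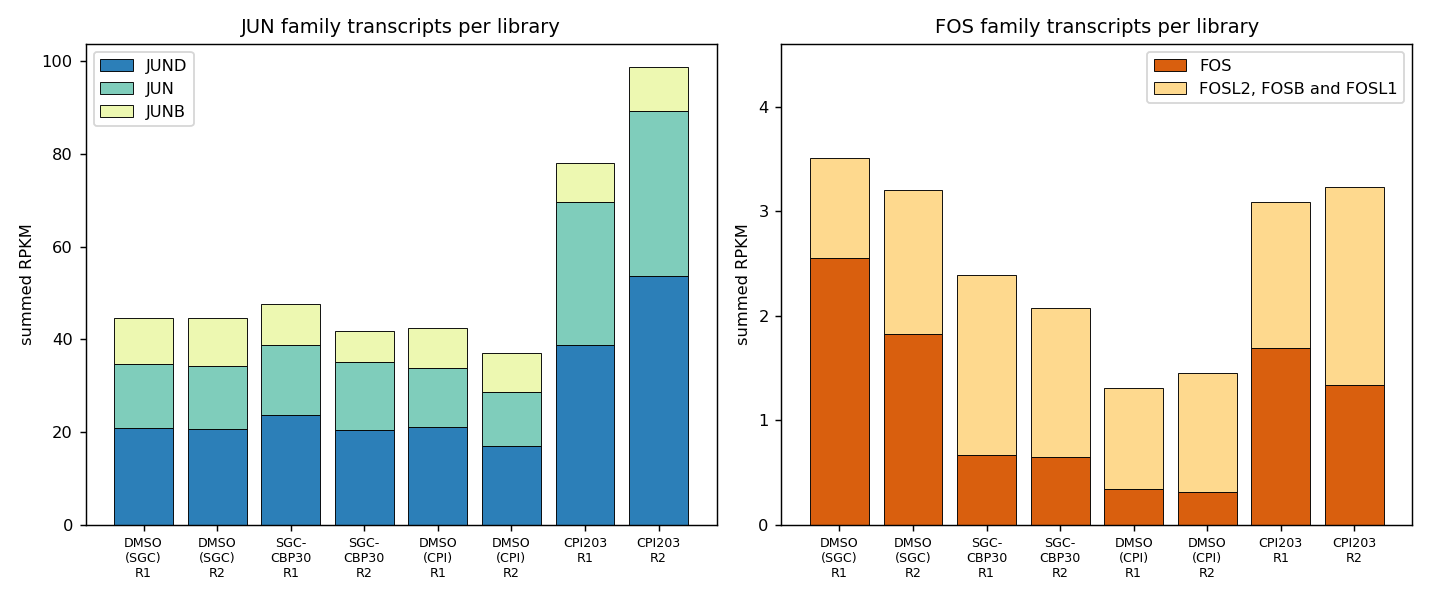
Summed RPKM of the JUN genes (left) and of FOS with FOSL2, FOSB and FOSL1 (right) in each library, as stacked bars from 0, R1 and R2 being the replicates. The JUN sum reached 78.1 and 98.8 RPKM with CPI203 against at most 47.8 RPKM in the other libraries, and the FOS part differed between the DMSO pairs.

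The response to the compounds differed in 6 of the 8 genes by a test of the difference itself, each lower with SGC-CBP30 relative to DMSO than with CPI203. This test had no minimum fold, and the JUNB difference was under 1.5-fold. Among all genes tested 50.3% differed by that test, so such a difference was common, and the doses were not matched. The median difference was -1.20 for the 8 genes and 0.06 over all genes. Against own controls FOS had the largest difference of the 8, -3.48 on the log2 scale (SE 0.330, adjusted p = 2.35e-05), with opposite directions for the compounds. IER2 differed by -1.39 (adjusted p = 9.48e-05), JUN by -1.31 (adjusted p = 1.05e-05), ATF3 by -1.22 (adjusted p = 2.89e-05) and JUND by -1.18 (adjusted p = 9.50e-04).

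JUNB differed by -0.47 (adjusted p = 0.0412), a call that was lost without any one of 6 libraries, at adjusted p between 0.0742 and 0.127. Those were all 4 DMSO libraries, SGC-CBP30 replicate 2, where the difference was -0.27, and CPI203 replicate 2. The difference for FOSL2 was 0.00 with a 95% interval from -0.74 to 0.75, and its sign turned under median scaling and quantile normalization. That for IER3 was -0.58 with an interval from -1.38 to 0.23. With all 4 DMSO libraries as controls, JUN, JUND and ATF3 kept the call, while FOS stood at -1.09 (adjusted p = 0.334), IER2 at -0.67 (adjusted p = 0.0823) and JUNB at -0.21 (adjusted p = 0.289). FOS then ranked behind ATF3 at -1.83 and JUN at -1.15. JUNB lost its call with no filter on low values as well (adjusted p = 0.178).

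The DMSO pairs were compared because each compound is read against its own pair. FOS, IER2 and ATF3 differed between them, 3 of 8 genes where 7.84% of all genes tested were called. They are also the genes called with SGC-CBP30, but both comparisons use the same DMSO libraries of the SGC-CBP30 experiment, so nothing is read from that. FOS was higher in the DMSO of the SGC-CBP30 experiment by 2.40 on the log2 scale (SE 0.233, adjusted p = 6.04e-05), at 2.55 and 1.82 RPKM against 0.339 and 0.316. The FOS level with SGC-CBP30, 0.656 ± 0.0115 RPKM, thus lay above the DMSO level of the CPI203 experiment, 0.328 ± 0.0162 RPKM. IER2 was higher by 0.72 (SE 0.116, adjusted p = 1.10e-03), and ATF3 differed by -0.60 (SE 0.085, adjusted p = 4.98e-04), just past 1.5-fold. The ATF3 call was lost without DMSO replicate 1 of the SGC-CBP30 experiment (-0.53) and without DMSO replicate 2 of the CPI203 experiment (-0.56), with a pseudocount of 1 RPKM (-0.49) and under quantile normalization (-0.56). JUN, JUNB, JUND, FOSL2 and IER3 were not called between the DMSO pairs, at log2 differences of -0.05 to 0.25.

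The experiments differed in other respects too. Depth was 34100000 to 50100000 reads in the SGC-CBP30 experiment and 26000000 to 29700000 in the CPI203 experiment. T and NK cell markers summed to 0.846 to 1.49 RPKM in the former and 2.01 to 2.88 RPKM in the latter, in treated and DMSO libraries alike. NCAM1 made up most of the former sum and overlapped, at 0.769 to 1.42 RPKM in the former and 0.984 to 1.75 RPKM in the latter. CD3D, CD3E and CD2 were higher in every library of the latter, and CD3D was listed at 0 in the former. CD8A reached at most 0.0147 RPKM, in the former. None of the 5 T and NK cell markers reached 1 RPKM in every library, and their part in the FOS, IER2 and ATF3 differences was not tested. The 3 erythroid markers summed to 3.19 and 3.55 RPKM in DMSO and 1.09 to 2.07 RPKM with CPI203. The plasma cell marker sum was 1170 to 1180 RPKM in those DMSO libraries and 680 to 695 RPKM with CPI203, and it was 1070 to 1130 RPKM and 888 to 909 RPKM in the SGC-CBP30 experiment. The sum hides exceptions. PRDM1 rose with CPI203, from 54.2 and 51.7 RPKM to 70.0 and 66.3 RPKM. SDC1 did not fall with SGC-CBP30, at 43.9 and 47.2 RPKM in DMSO and 53.1 and 47.4 RPKM treated. In each case the other plasma cell markers were lower in both treated libraries than in both controls. All libraries are of a single cell line. Fewer cells of a type and less RNA per cell cannot be told apart in bulk samples. Experiment and control pair cannot be told apart either, since each experiment holds its own compound.

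**Figure D3:**
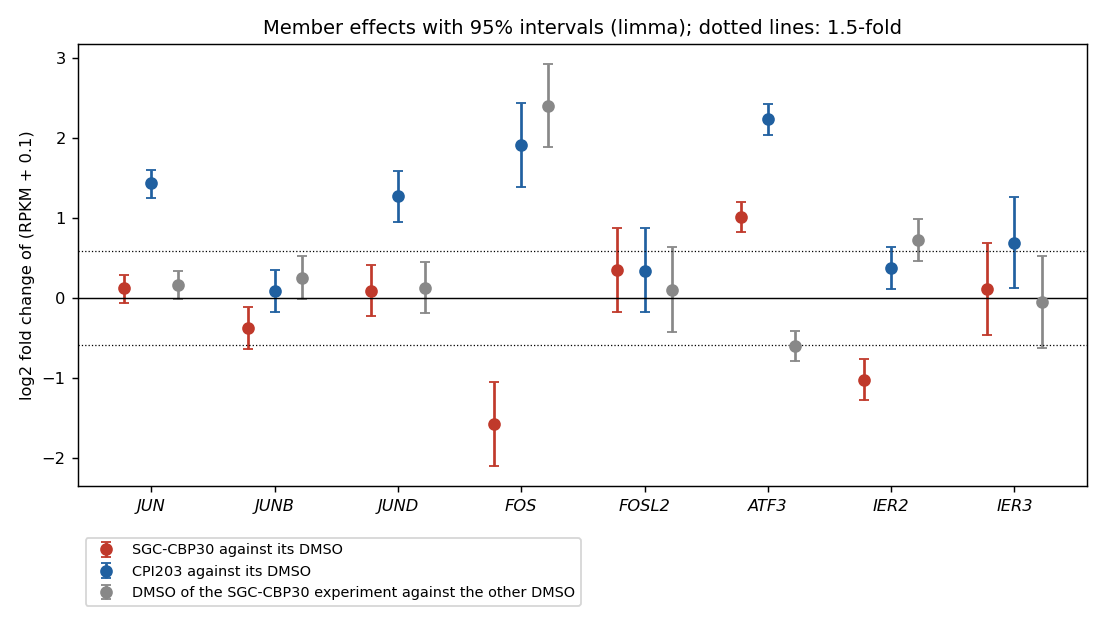
Log2 fold change of (RPKM + 0.1) of the 8 tested genes with 95% intervals from limma, for each compound relative to its vehicle pair and for the DMSO of the SGC-CBP30 experiment relative to the other DMSO, with dotted lines at 1.5-fold. FOS stands at -1.58, 1.91 and 2.40, and JUN at 0.12, 1.43 and 0.16.

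Across the 8 libraries the genes followed more than 1 pattern. The Pearson correlation of log2(RPKM + 0.1) was 0.98 between JUN and JUND, 0.94 between JUN and ATF3, 0.86 between JUNB and IER2 and 0.77 between FOS and IER2, but 0.12 between JUN and JUNB. These describe 8 libraries that share treatments and controls. Among genes outside the 10 with a mean of at least 5 RPKM, 10539 in all, JUN was most like TUBB4B, a tubulin, and HIST2H2AA3, a histone, both at 0.996. ATF3 was most like KIAA1279 (0.999) and ABHD17B (0.998). FOS was most like DUSP1 (0.988), the MAP kinase phosphatase and itself an immediate-early gene, and then NUMA1 (0.975). DUSP1 measured 9.02 and 7.70 RPKM in DMSO and 5.61 and 5.30 with SGC-CBP30, and 4.18 and 4.12 RPKM in DMSO and 6.98 and 7.41 with CPI203. IER2 was most like EEF2 (0.986) and TTC7A (0.978), JUND like TMEM41B (0.980) and ZBTB22 (0.977), and IER3 like the pseudogene NAP1L1P3 (0.970) and ZNF101 (0.934).

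Immediate-early genes outside the 10 moved in both directions. Of 43 listed, 31 were tested, and 15 were called higher and 4 lower with CPI203 (13.4% and 14.4% of all genes), with a median log2 fold change of 0.55 against -0.01 over all genes. PPP1R15A, which restarts translation after stress by directing dephosphorylation of eIF2α, rose from 4.62 to 16.3 RPKM (log2 fold change 1.80, adjusted p = 5.59e-08). ZFP36, which speeds the decay of AU-rich transcripts, rose from 8.69 to 28.9 RPKM (1.72, adjusted p = 6.48e-08), and BTG1, an antiproliferative gene, from 23.1 to 64.5 RPKM (1.48, adjusted p = 2.85e-08). PLK3, a stress kinase, fell from 4.08 to 1.31 RPKM and TRIB1, a pseudokinase, from 59.9 to 26.1 RPKM. ZFP36L2, a relative of ZFP36, fell from 12.1 to 7.64 RPKM. TRIB1 was called lower with SGC-CBP30 as well (log2 fold change -0.61, adjusted p = 9.7e-05).

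With SGC-CBP30, 5 of the 31 were called higher and 8 lower (3.47% and 3.79% of all genes), with a median of -0.03 against 0.07 over all genes. KLF2, a quiescence factor of lymphocytes, fell from 16.3 to 3.5 RPKM (log2 fold change -2.19, adjusted p = 5.39e-07). TNFAIP3, the inhibitor of NF-κB signalling also called A20, fell from 54.6 to 25.5 RPKM, and IER5L from 5.86 to 2.79 RPKM. TNFAIP3 was called lower with CPI203 as well (log2 fold change -0.60, adjusted p = 1.9e-06). ID1 and ID3, which block basic helix-loop-helix factors, rose from 9.63 to 34.2 RPKM and from 6.52 to 17.6 RPKM. In the DMSO of the CPI203 experiment ID1 measured 17.4 and 16.1 RPKM and ID3 16.7 and 16.2 RPKM, near the ID3 level with SGC-CBP30. ID1 rose with CPI203 as well, to 33.3 and 38.5 RPKM (log2 fold change 1.09, adjusted p = 1.23e-06). ID3 was not called with CPI203, at 0.28 (adjusted p = 0.0133). Of the 31, 2 were called higher and 4 lower in the DMSO of the SGC-CBP30 experiment than in the other DMSO. Over all genes 7.84% were called in either direction. PPP1R15A rose with SGC-CBP30 as well, from 4.15 to 8.37 RPKM (0.99, adjusted p = 1.54e-05), less than with CPI203 by the test of the difference (adjusted p = 1.78e-04), as ATF3 did. ZFP36 moved in opposite directions, at a log2 change of -0.64 for SGC-CBP30 (adjusted p = 1.97e-04).

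Of 29 other AP-1 and related bZIP factors, 22 were tested, and 5 were called higher and 1 lower with CPI203, where 13.4% and 14.4% of all genes were, at a median of 0.41 against -0.01 over all genes. With SGC-CBP30, 1 was called higher and 2 lower, where 3.47% and 3.79% of all genes were, at a median of 0.07, the same as over all genes. CREB1, which binds the cyclic AMP response element, rose from 20.8 to 44.7 RPKM with CPI203 (log2 fold change 1.10, adjusted p = 5.80e-07). BACH2, a repressor of the plasma cell programme, rose from 3.76 to 6.25 RPKM and DDIT3, the stress factor CHOP, from 12.6 to 20.3 RPKM, while MAFK, a small MAF protein, fell from 8.12 to 4.24 RPKM. With SGC-CBP30, MAF, a myeloma oncogene in some translocated lines, fell from 43.3 to 21.2 RPKM (-1.03, adjusted p = 1.48e-06). Its change with CPI203 was 0.59 (adjusted p = 6.41e-06), just past 1.5-fold, from 31.0 and 29.4 RPKM in DMSO to 45.0 and 45.9 RPKM. That treated level was near the 42.9 and 43.6 RPKM of MAF in the DMSO of the SGC-CBP30 experiment. MAFF fell from 1.80 to 1.12 RPKM and CREB5 rose from 0.719 to 1.80 RPKM with SGC-CBP30. CREB5 measured 1.5 and 1.38 RPKM in the DMSO of the CPI203 experiment. Between the DMSO pairs 1 of the 22 was called, lower in the SGC-CBP30 experiment, where 7.84% of all genes were called in either direction. ATF4, the stress factor upstream of ATF3 and DDIT3, was chosen after its values were seen. It was not called with either compound, though both treated libraries lay below both of their controls each time. ATF4 measured 229 and 236 RPKM in DMSO and 204 and 198 with SGC-CBP30, and 192 and 190 RPKM in DMSO and 151 in both CPI203 libraries.

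**Figure D4:**
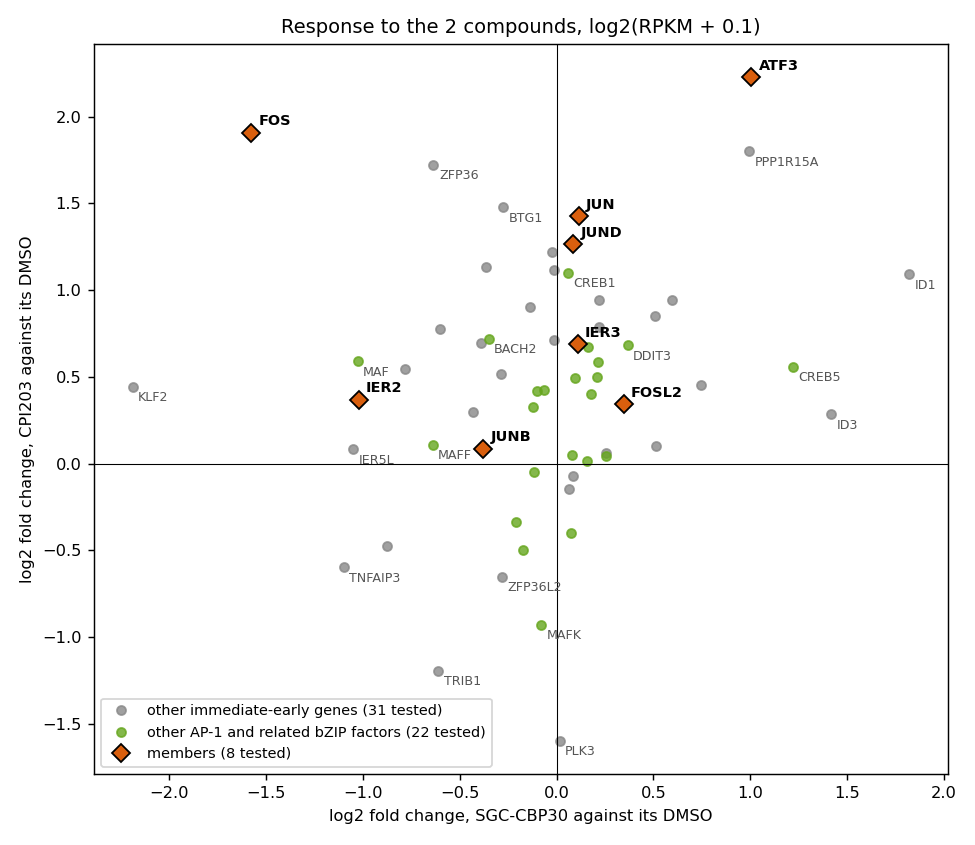
Log2 fold change of (RPKM + 0.1) with SGC-CBP30 (horizontal) and with CPI203 (vertical), each against its own DMSO, for the 8 tested members (diamonds), 31 other immediate-early genes (grey) and 22 other AP-1 and bZIP factors (green), with the genes named in the text labelled. FOS lies at -1.58 and 1.91, and ATF3 at 1.01 and 2.23.

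Of 25 kinases and nuclear factors upstream of these genes, 23 were tested and 1 was called with SGC-CBP30 (7.26% of all genes), at a median of 0.14 against 0.07 over all genes. That gene, RPS6KA1, rose from 2.93 to 4.59 RPKM, and its call was lost with a pseudocount of 1 RPKM, under median scaling and under quantile normalization. With CPI203, 8 were called higher and 1 lower (13.4% and 14.4% of all genes), at a median of 0.28 against -0.01. RPS6KA1, the ERK-activated kinase RSK1, rose from 3.05 to 7.86 RPKM (log2 fold change 1.34, adjusted p = 3.15e-06). MAPK8, which encodes the c-Jun kinase JNK1, rose from 27.0 to 49.2 RPKM (0.86, adjusted p = 1.12e-06), and MAPK7, the kinase ERK5, from 5.24 to 8.60 RPKM. RPS6KA4, the kinase MSK2 that phosphorylates CREB and histone H3, fell from 13.8 to 7.66 RPKM.

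Genes described in textbooks as AP-1 targets were tested in 10 of 20 cases, the others being under the limit of 1 RPKM. With CPI203, 4 were called higher and none lower by limma (1 passed the adjusted p alone in that direction), where 13.4% and 14.4% of all genes were, at a median of 0.38 against -0.01. LMNA, encoding lamin A, rose from 60.5 to 245 RPKM (log2 fold change 2.02, adjusted p = 2.46e-09), and VIM, encoding vimentin, from 344 to 669 RPKM. CD44, an adhesion receptor, rose from 29.9 to 56.5 RPKM with CPI203 (0.92, adjusted p = 2.08e-06). With SGC-CBP30, CD44 fell from 49.3 to 23.2 RPKM (-1.09, adjusted p = 5.19e-06), and the difference between the compounds passed the test (adjusted p = 6.20e-07). SGC-CBP30 also lowered SPP1, encoding osteopontin, from 1.91 to 0.596 RPKM and TIMP1, a metalloproteinase inhibitor, from 3.78 to 1.78 RPKM. It raised HMOX1, the haem-degrading enzyme and also a stress gene controlled by NFE2L2, from 30.5 to 102 RPKM (1.75, adjusted p = 3.72e-07), so 1 target was called higher and 3 lower with this compound, where 3.47% and 3.79% of all genes were, at a median of 0.03 against 0.07. The DMSO pairs differed here too, with 4 of the 10 tested targets called higher in the DMSO of the SGC-CBP30 experiment (CD44, HMOX1, SPP1 and TIMP1), where 7.84% of all genes were called in either direction. These are the targets called with SGC-CBP30, which is read against that DMSO pair. CD44 was higher there by 0.72 on the log2 scale (SE 0.069, adjusted p = 5.57e-05).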

How the data were processed

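RNA was measured in 8 LP-1 libraries, 2 in each of 4 groups. The authors deposited a table of RPKM values, made by their sequencing provider, and the submitters' processing notes name TopHat 1.4.1, Cufflinks and hg19. Cufflinks shares reads among overlapping genes by a model, so low values need not be whole reads. Whether counting used strand is not given in the sources used here. Gene positions are the deposited hg19 ones. The table also holds 24 columns of other libraries, which were not used.

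Without the 27 genes that lack a value somewhere, log2(RPKM + 0.1) was fitted with limma 3.58.1 in R 4.3.3 (4 group means, eBayes with an intensity trend, 4 residual and 5.5 prior degrees of freedom), with Benjamini-Hochberg adjustment over the 14732 genes whose mean reached 1 RPKM. p-values rest on 2 replicates per group, and an exact permutation test of 2 against 2 cannot go below p = 0.333. 95% intervals use the moderated standard errors and are not adjusted. IER3 has 5 further rows on alternative haplotypes, listed at 0 and not used. Depth was estimated from the steps of low RPKM values in single-exon, single-transcript genes of GENCODE 29, of which 65.3% to 75.6% lay within 0.15 reads of a whole number. Read numbers behind a value are therefore estimates. Promoters are from RefSeq (GRCh38.p14), a build other than that of the deposited positions.

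The members and lists were chosen with earlier results of these data known, so they are not independent support for any pattern. Named by rule were all members, up to 3 called genes with the largest change in each direction per list and compound, and the 2 genes most like each called member. Alternatives changed the pseudocount (1 RPKM), the filter (5 RPKM or none), the scaling (median or quantile), the controls (all 4 DMSO libraries), the fold threshold and the model (replicate block, or 1 fit per experiment), and left out each library in turn. Python 3.11.15, pandas 2.3.3, numpy 2.4.6 and matplotlib 3.10.9 were used for tables and figures.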

Additional observations from a re-analysis of the deposited data

How the results depend on the processing

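With all 4 DMSO libraries as controls, 0 members were called with SGC-CBP30 by limma (3 with its own controls), with 1 higher and 1 lower at an unadjusted p under 0.05, and 3 by the difference between the compounds (6 with own controls). With a mean of at least 5 RPKM, 3 members were called with CPI203, since fewer members were tested. Under the main filter, a threshold of 2-fold left 1 member called between the DMSO pairs. Leaving out each library in turn gave 3 to 3 called members with SGC-CBP30, 4 to 5 with CPI203, 5 to 6 by the difference and 2 to 3 between the DMSO pairs. The same-numbered libraries share only a number (correlation of their deviations -0.172 and -0.039 over 8298 genes), and with the replicate number as a block 3, 5 and 6 members were called with SGC-CBP30, with CPI203 and by the difference, as without it. Crossing the numbers in the SGC-CBP30 experiment, an alternative chosen after seeing the data, also gave 3, 5 and 6.

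Changes near 0 turned sign. JUNB with CPI203 was -0.04 with all 4 DMSO libraries and -0.004 to 0.178 without single libraries. FOSL2 in the difference was -0.058 under median scaling, -0.34 under quantile normalization and -0.20 to 0.21 without single libraries. IER3 with SGC-CBP30 was -0.067 under quantile normalization and -0.14 to 0.36 without single libraries, and between the DMSO pairs it was 0.074 and -0.30 to 0.20. Without single libraries, JUND with SGC-CBP30 ran from -0.014 to 0.19, JUND between the DMSO pairs from -0.017 to 0.28 and FOSL2 between them from -0.10 to 0.31. The cause was not tested. Over all genes, 1070 were called with SGC-CBP30, 667 with a pseudocount of 1 RPKM, 505 under a filter of 5 RPKM and 516 with all 4 DMSO libraries. With CPI203 4095 were called, and 2590 under the filter of 5 RPKM, and between the DMSO pairs 1155 and 518. Of the calls with SGC-CBP30, 47.8% were higher, 32.5% under median scaling and 32.4% under quantile normalization. Among the lists, all 4 DMSO libraries as controls left 0 bZIP factors higher and 1 lower, 3 immediate-early genes higher and 5 lower and 1 target lower with SGC-CBP30, and 4 kinases and nuclear factors higher and 1 target lower with CPI203. A mean of at least 5 RPKM left 0 bZIP factors higher, 1 lower, 0 kinases and nuclear factors higher and 1 target lower with SGC-CBP30. A pseudocount of 1 RPKM left 1 bZIP factor lower and 0 kinases higher with SGC-CBP30 and 5 kinases higher with CPI203. No filter gave 4 bZIP factors lower with SGC-CBP30 and 3 with CPI203, and both scalings gave 0 kinases higher with SGC-CBP30. Depth limits FOS, EGR1, IER3 and BATF, each with under 200 reads in every library.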

Other observations

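Some immediate-early and lymphoid transcripts followed the experiment in treated and DMSO libraries alike. They were chosen after their values were seen and are given as values. EGR2 measured 0.0103 to 0.0375 RPKM in the SGC-CBP30 experiment and 0.154 to 0.219 RPKM in the CPI203 experiment. IL2 was listed at 0 in all 4 libraries of the former and measured 0.492 to 0.845 RPKM in the latter.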
